A study of Mus musculus with 18 samples.

Results

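The regions described here were highly methylated stretches of the mouse autosomes whose mean methylation was nearly the same in wild-type mice and in mice carrying the Dnmt3a R878H mutation. They were chosen by the values themselves: an autosomal region of either deposited table was taken if its wild-type mean was at least 80% and the wild-type and mutant means differed by less than 1 percentage point. Of 411770 regions listed for CD11b+ cells, 296088 were autosomal with a wild-type mean of at least 80%, and 13727 of these met the rule (4.64%). Of 553467 regions listed for CD4+ cells, 423477 were highly methylated in this sense and 16599 met the rule (3.92%). The 30326 regions of both tables are called unchanged regions below, as a short name for the rule. Since wild-type level and loss chose them, both are given as a description and support nothing.

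Whole-genome bisulfite sequencing was performed on splenic CD11b+ cells, a myeloid fraction, and CD4+ cells, a helper T cell fraction. The control mice were Dnmt3a+/+ (WT), a name under which the study's methods put both Cre+ mice without the mutant allele and Cre- mice with the unrecombined Dnmt3a fl-R878H/+ allele, and the mutant mice carried the heterozygous Dnmt3a R878H allele after a cross of Dnmt3a fl-R878H/+ mice with Vav1-iCre mice, a constitutive driver that acts in haematopoietic cells. The labels, which write the mutant genotype as Dnmt3aR878/+, number 4 replicates in each of the 4 groups, with a second entry for replicates 3 and 4 of the CD11b+ mutant group, and give no ages. Apart from the authors' own difference and test columns, which are not used here, the tables hold one mean per group for a region, so no error between mice and no depth can be given and no test was made, and cell purity was not checked here because the tables hold no expression.

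DNMT3A is a de novo DNA methyltransferase that places methyl groups on cytosines of CpG dinucleotides, whereas DNMT1 copies existing methylation to the new strand when DNA is replicated. R878H is the mouse counterpart of R882H, the hotspot mutation of human clonal haematopoiesis and acute myeloid leukaemia, and the mutant protein is known to interfere with the remaining normal enzyme. Most CpGs of the mammalian genome are methylated outside CpG islands, and methylation is dense over the bodies and exons of transcribed genes.

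To show what such regions look like, the sequences of 6 regions unchanged in both cell types are printed here, namely those with the most measured cytosines among the pairs of overlapping unchanged regions whose CD11b+ region was at most 300 bp long and lay outside untranslated exons. Capitals mark whole CpG dinucleotides on the plus strand of mm10, read from the RefSeq GRCm38.p6 sequence, and a CpG cut by the edge of a region stays in lower case.
Tctn3, chr19:40609687-40609775, plus strand: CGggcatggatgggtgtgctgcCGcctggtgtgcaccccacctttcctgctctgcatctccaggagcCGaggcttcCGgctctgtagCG
near Tgif1, chr17:70917268-70917452, plus strand: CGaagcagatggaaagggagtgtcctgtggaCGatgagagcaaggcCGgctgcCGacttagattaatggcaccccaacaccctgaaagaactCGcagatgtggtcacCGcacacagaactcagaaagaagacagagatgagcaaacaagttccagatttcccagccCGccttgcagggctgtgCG
Prox2, chr12:85087962-85088055, plus strand: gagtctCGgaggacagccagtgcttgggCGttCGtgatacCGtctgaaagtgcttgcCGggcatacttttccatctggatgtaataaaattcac
near Pccb, chr9:101044882-101045098, plus strand: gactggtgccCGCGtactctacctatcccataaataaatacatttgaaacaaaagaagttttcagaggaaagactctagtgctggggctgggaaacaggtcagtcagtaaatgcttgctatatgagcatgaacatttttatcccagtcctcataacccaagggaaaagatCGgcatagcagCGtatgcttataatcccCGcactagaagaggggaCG
Creb5, chr6:53638798-53639053, plus strand: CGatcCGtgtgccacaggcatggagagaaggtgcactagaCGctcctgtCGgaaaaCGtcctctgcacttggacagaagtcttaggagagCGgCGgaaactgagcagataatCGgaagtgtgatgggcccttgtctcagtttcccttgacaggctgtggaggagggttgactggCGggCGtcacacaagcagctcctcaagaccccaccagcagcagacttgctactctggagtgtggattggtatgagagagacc
Osbpl10, chr9:115172040-115172264, plus strand: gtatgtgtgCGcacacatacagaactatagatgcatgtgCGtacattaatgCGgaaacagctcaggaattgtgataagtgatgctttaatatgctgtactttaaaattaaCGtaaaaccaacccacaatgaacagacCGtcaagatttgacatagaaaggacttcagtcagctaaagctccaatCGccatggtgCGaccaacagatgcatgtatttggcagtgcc
The Tctn3, Creb5 and Osbpl10 regions lay in introns, the Prox2 region lay wholly within coding sequence, and the remaining ones lay between genes, 63814 bp and 10092 bp from the nearest start sites, those of Tgif1 and Pccb. Tctn3 encodes a protein of the ciliary transition zone, Prox2 a homeobox protein, Creb5 a transcription factor and Osbpl10 an oxysterol-binding protein relative. The intron of Tctn3 measured 94.75% in WT and 94.225% in R878H CD11b+ cells, and the overlapping CD4+ region measured 94.766% and 95.073%. The Prox2 exon measured 94.1% and 94.625% in CD11b+ cells, and in CD4+ cells they were 96.327% and 96.154%. Near Tgif1 the means were 94.479% and 93.562% in CD11b+ cells, and in CD4+ cells they were 94.893% and 94.732%. The 4 means of each of these regions lay close together. The region near Pccb measured 95.1% and 95.575% in CD11b+ cells against 96.455% and 95.75% in CD4+ cells. The Creb5 intron measured 95.833% and 95.271% in CD11b+ cells, and in CD4+ cells they were 95.25% and 95.145%. The Osbpl10 intron measured 96.267% and 95.733% in CD11b+ cells, and in CD4+ cells they were 94.109% and 94.906%. The mutant mean was the higher one in CD11b+ cells for Prox2 and Pccb and in CD4+ cells for Tctn3 and Osbpl10, so the small differences had no common sign.

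For contrast, the 2 regions with the largest loss shared by both cell types under the same limits were as follows, chosen for that loss.
near Lif, chr11:4308352-4308520, plus strand: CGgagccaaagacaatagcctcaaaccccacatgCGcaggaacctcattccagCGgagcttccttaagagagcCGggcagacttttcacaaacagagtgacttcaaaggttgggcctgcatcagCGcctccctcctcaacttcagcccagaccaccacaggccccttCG
Prdm16, chr4:154543894-154544156, plus strand: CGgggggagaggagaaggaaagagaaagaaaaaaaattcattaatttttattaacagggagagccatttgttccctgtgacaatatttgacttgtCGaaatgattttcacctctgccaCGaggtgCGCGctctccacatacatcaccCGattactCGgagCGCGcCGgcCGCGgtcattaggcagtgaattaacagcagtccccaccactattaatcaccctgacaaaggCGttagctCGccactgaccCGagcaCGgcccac
The first of these lay between genes, 50879 bp from the start of Lif, a cytokine gene, and fell from 83.8% to 36.45% in CD11b+ cells and from 80.654% to 30.5% in CD4+ cells. The second lay in an intron of Prdm16, a transcription factor gene used by blood stem cells, and fell from 83.078% to 36.147% in CD11b+ cells and from 85.571% to 40.643% in CD4+ cells. CpG density did not set them apart: the 6 unchanged regions held 3.23 to 7.45 CpG per 100 bp, and these 2 regions held 3.55 and 6.46.

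**Figure D1:**
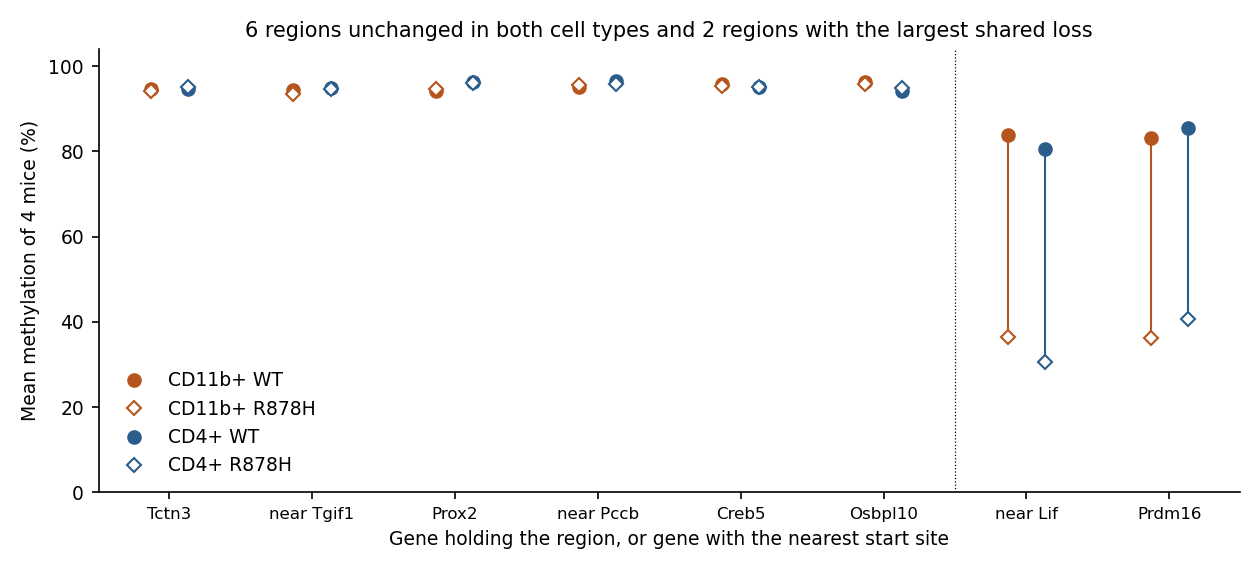
Mean methylation in percent (vertical axis) of the 6 regions unchanged in both cell types and, right of the dotted line, of the 2 regions with the largest shared loss (horizontal axis, by gene). Filled circles are the authors' WT means and open diamonds their R878H means, in orange for CD11b+ and blue for CD4+ cells. The first 6 regions have all 4 means between 93.562% and 96.455%, and the last 2 regions have R878H means between 30.5% and 40.643%.

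Most highly methylated regions had the lower mean in R878H (plot of loss at highly methylated regions). The means carry no group names in the tables, and the one higher in most rows was read as WT. This direction was thus set by that reading. Loss, the WT mean minus the R878H mean, had a median of 5.65 points over all highly methylated autosomal regions of CD11b+ cells and 6.11 points in CD4+ cells, and 93.9% and 95.8% of those regions had the lower mean in R878H. The share of regions per 1-point step was 1.69% at a gain of up to 1 point, 2.99% at a loss of up to 1 point, 3.87% at a loss of 1 to 2 points and 12.5% at a loss of 5 to 6 points in CD11b+ cells. In CD4+ cells the same 4 shares were 1.37%, 2.58%, 3.45% and 12.0%. With no listed difference below 0.1 point, the tables could not show whether a peak lay at 0. Beyond the unchanged regions, 13112 highly methylated regions of CD11b+ and 11985 of CD4+ cells had an R878H mean at least 1 point above that of WT.

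**Figure D2:**
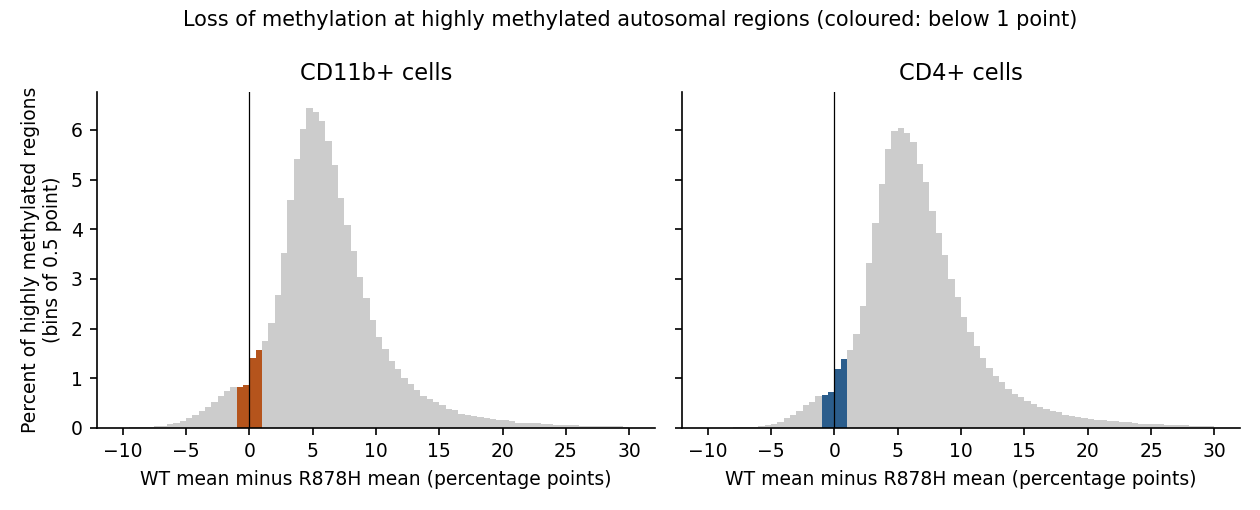
Loss of methylation (horizontal axis, WT mean minus R878H mean in percentage points) at highly methylated autosomal regions, as the percent of those regions in bins of 0.5 point (vertical axis), for CD11b+ cells on the left and CD4+ cells on the right. Coloured bins hold the unchanged regions, on the left side of a distribution whose median was 5.65 points in CD11b+ and 6.11 points in CD4+ cells.

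No region of either table differed by less than 0.1 point between the group means, so the unchanged regions covered differences of 0.1 to 0.988 points in either direction. Whether a minimum difference was set when the tables were made is not given in the sources used here, so the counts are of regions at 0.1 to 1 point only. Within the rule the 2 directions were not equally filled. Among the unchanged regions of CD11b+ cells 8841 (64.4%) had the lower mean in R878H and 4886 (35.6%) the higher mean, and in CD4+ cells these were 10923 (65.8%) and 5676 (34.2%). The number of regions per 0.1 point stepped up across 0, from 612 at gains of 0.1 to 0.5 point to 1046 at losses of 0.1 to 0.5 point in CD11b+ cells, and from 722 to 1265 in CD4+ cells. On each side of the step it changed less, with 488 per 0.1 point at gains of 0.5 to 1 point and 931 at losses of 0.5 to 1 point in CD11b+ cells, while the CD4+ numbers were 558 and 1173. The cause of this step was not tested.

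Just inside the limit of 1 point lay, in CD11b+ cells, a region of the Pex14 intron with 96.338% in WT and 95.35% in R878H and a region of the Skap1 intron with 93.653% and 92.667%. Just outside it lay a region of the Rbpj intron with 94.44% and 93.44%. In CD4+ cells a region of the Apba1 intron with 93.833% and 92.845% and a region of the Bach2 intron with 97.553% and 96.566% lay just inside, and a region of Tfip11 with 94.08% and 93.08% lay just outside. The 5 regions nearest the limit on the inside differed by 0.986 to 0.988 points in CD11b+ and in CD4+ cells, and the 5 nearest on the outside by 1.000 point.

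A typical unchanged region was short and rested on few cytosines. The tables count CpG cytosines of the 2 strands separately, with 10 as the smallest number in a listed region, and 75.1% of the unchanged regions of CD11b+ cells and 73.5% of those of CD4+ cells had exactly 10, against 57.6% and 54.6% of the other highly methylated regions. Median length was 372 bp in CD11b+ cells (quartiles 222 and 554 bp), against 516 bp for the other highly methylated regions, and 334 bp in CD4+ cells (196 and 503 bp), against 509 bp. The median region held 7 CpG dinucleotides in its sequence in either cell type, and values existed for a median of 76.9% of its CpG cytosines in CD11b+ and 83.3% in CD4+ cells, the same medians as in the other highly methylated regions. The share of CpG cytosines measured therefore did not separate the groups, whereas length and cytosine number did. Neither trait was particular to the unchanged regions. Of the regions that gained at least 1 point, 75.7% in CD11b+ and 74.8% in CD4+ cells had exactly 10 cytosines. Their median length in CD11b+ cells was 337 bp. The WT means had a median of 93.9% in CD11b+ and 94.7% in CD4+ cells, against 91.5% and 91.9%, a difference that the rule favours because regions near 80% rarely met it.

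CpG density was higher in the unchanged regions than in most regions that lost methylation. The median was 2.14 CpG per 100 bp in CD11b+ cells (quartiles 1.51 and 3.31), against 1.59 (1.19 and 2.26) in the other highly methylated regions, and 2.25 (1.58 and 3.55) in CD4+ cells, against 1.52 (1.14 and 2.17). Of the unchanged regions, 71.5% in CD11b+ and 77.5% in CD4+ cells lay above the median density of the other highly methylated regions. Because most listed regions hold the same number of cytosines, density and length are largely one measurement here, and the regions' edges were set on the same methylation values, so density is not fully independent of the rule. The difference was also present in each gene position class: in exons the medians were 2.55 against 1.91 in CD11b+ and 2.69 against 1.86 in CD4+ cells, and between genes they were 2.06 against 1.51 and 2.22 against 1.44.

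Read the other way, the share of highly methylated regions that met the rule rose at every step of CpG density. In CD11b+ cells it was 1.70% below 1 CpG per 100 bp, 3.45% at 1 to 2, 6.04% at 2 to 3, 8.18% at 3 to 5, 12.7% at 5 to 10 and 20.8% at 10 or more, against 4.64% over all. In CD4+ cells the same shares were 0.997%, 2.73%, 5.48%, 8.31%, 13.0% and 24.0%, against 3.92% over all. The densest class was small, with 400 unchanged of 1926 regions in CD11b+ and 623 of 2592 in CD4+ cells. Density was not a mark of unchanged regions alone. Regions with a loss of at least 20 points had a median of 2.16 CpG per 100 bp in CD11b+ and 1.98 in CD4+ cells, and regions that gained at least 1 point had 2.32 and 2.64, so low density went with the intermediate losses and high density with both ends.

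**Figure D3:**
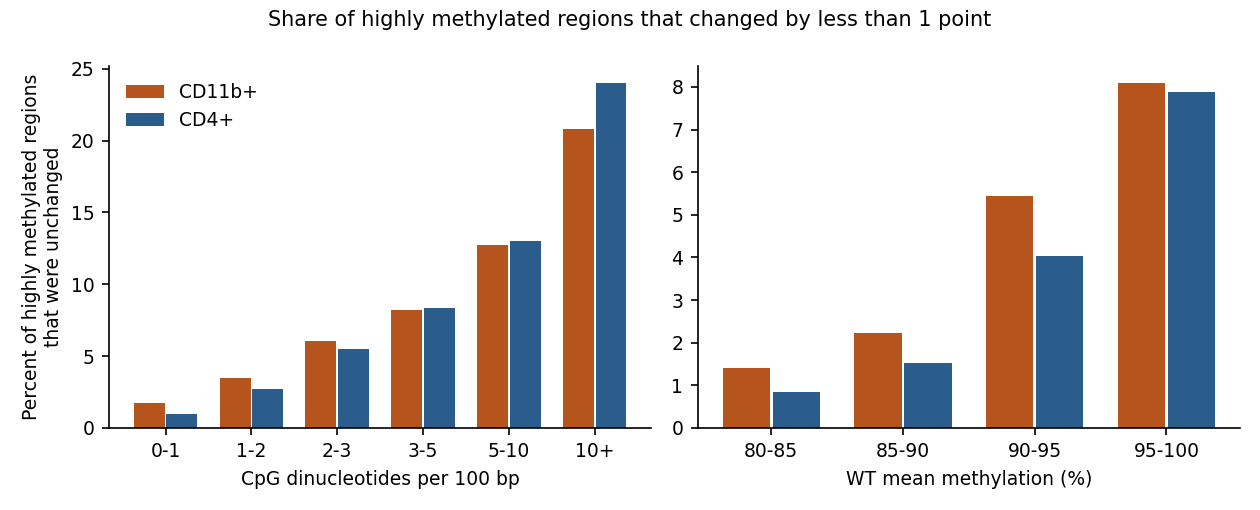
Percent of highly methylated autosomal regions that were unchanged (vertical axis), by CpG dinucleotides per 100 bp on the left and by WT mean methylation in percent on the right, with orange bars for CD11b+ and blue bars for CD4+ cells. The share rises with density from 1.70% to 20.8% in CD11b+ and from 0.997% to 24.0% in CD4+ cells, and with WT mean from 1.40% to 8.09% and from 0.833% to 7.87%. The scales of the 2 panels differ.

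The base after the CpG also differed slightly between the unchanged and the other highly methylated regions. In the unchanged regions 25.5% of CpG cytosines in CD11b+ and 26.4% in CD4+ cells were followed, after the G, by a C, against 20.7% and 20% in the other highly methylated regions. A T in that position was less frequent, at 26.4% against 29.6% and 25.4% against 30.1%, and so was an A, at 21.3% against 23.8% and 20.7% against 24.4%. Normal DNMT3A is known to prefer CpGs followed by a pyrimidine. Regions that gained at least 1 point had much the same make-up as the unchanged ones, with a C after 25.6% and 27.6%, a T after 25.5% and 23.9% and an A after 21.5% and 20.2% of their CpG cytosines. A G followed 26.8% of CpG cytosines of the unchanged regions against 25.9% in CD11b+ cells, and 27.5% against 25.5% in CD4+ cells, while it followed 30.0% and 28.9% in the regions that lost at least 20 points. Median GC content was 47.2% against 45.5% in CD11b+ and 47.6% against 45.2% in CD4+ cells, and the part of base composition in the neighbouring base was not tested. Both heavily masked and unmasked sequence, in the soft-masking of repeats in the reference genome, was more common than in the other regions: at least 50% of the sequence was soft-masked in 11.2% of the unchanged regions against 8.59% in CD11b+ and in 12.2% against 9.29% in CD4+ cells, and no base was soft-masked in 25.6% against 16.9% and 29.2% against 16.8%. Unmasked sequence was not particular to them, with 26.9% and 24.1% at losses of at least 20 points and 29.1% and 33.1% at gains of at least 1 point. Heavily masked sequence made up 1.99% and 2.14% of the former and 13.3% and 15.5% of the latter.

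Unchanged regions lay more often in coding exons than the other highly methylated regions. A region was assigned to a promoter (within 1 kb of the start site of a protein-coding gene), otherwise to an exon, an intron or the space between genes, with GENCODE M21 gene models. In CD11b+ cells 16.7% of the unchanged regions lay in exons against 11.6% of the others, and in CD4+ cells 18.7% against 10.7%. Introns held 43.3% against 40.7% and 42.4% against 40.0%, and the space between genes held 36.8% against 44.6% and 35.7% against 46.3%. Position within a gene as such was not particular to them: gene bodies were touched by 62.9% and 63.9% of the unchanged regions, by 54.8% and 53.1% of the others and by 63.5% and 62.5% of the regions that lost at least 20 points, and the space between genes held 35.3% and 36.3% of the latter. At WT means of 80% to 85% in CD11b+ cells the difference between genes turned, with 54.7% of the unchanged regions there against 51.3%. Coding sequence was touched by 15.8% against 10.7% of the regions in CD11b+ and by 17.5% against 9.77% in CD4+ cells, and 2.74% against 1.06% and 3.60% against 1.01% lay wholly within it. The last exon of a gene was touched by 6.03% against 4.25% and by 6.63% against 4.01%. Among regions in exons the share that met the rule was alike in last exons and in others, at 6.46% and 6.44% in CD11b+ and 6.33% and 6.58% in CD4+ cells, so last exons did not stand out among exons. Among regions with more than 20 cytosines the exon share was 24.5% against 15.3% in CD11b+ and 30.2% against 13.6% in CD4+ cells, while at WT means of 80% to 85% it was 7.95% against 7.64% and 10.6% against 6.75%.

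Promoters of protein-coding genes did not differ clearly. They held 3.18% of the unchanged regions against 3.04% of the others in CD11b+ cells, and 3.24% against 2.96% in CD4+ cells. With the start sites of all annotated genes, promoters held more of the unchanged regions, with 11.1% against 9.41% and 11.8% against 9.04%. For protein-coding genes the sign of the difference turned with the width of the limit, with the number of cytosines and with WT level. For introns the sign turned with WT level in both cell types and with the number of cytosines in CD4+ cells, but not with the width of the limit. Regions that lost at least 20 points lay at promoters more often, with 6.88% in CD11b+ and 7.24% in CD4+ cells, and in exons no more often than the average, with 10.8% and 9.86%. Regions that gained at least 1 point resembled the unchanged ones in exon share, with 17.3% and 19.6%.

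**Figure D4:**
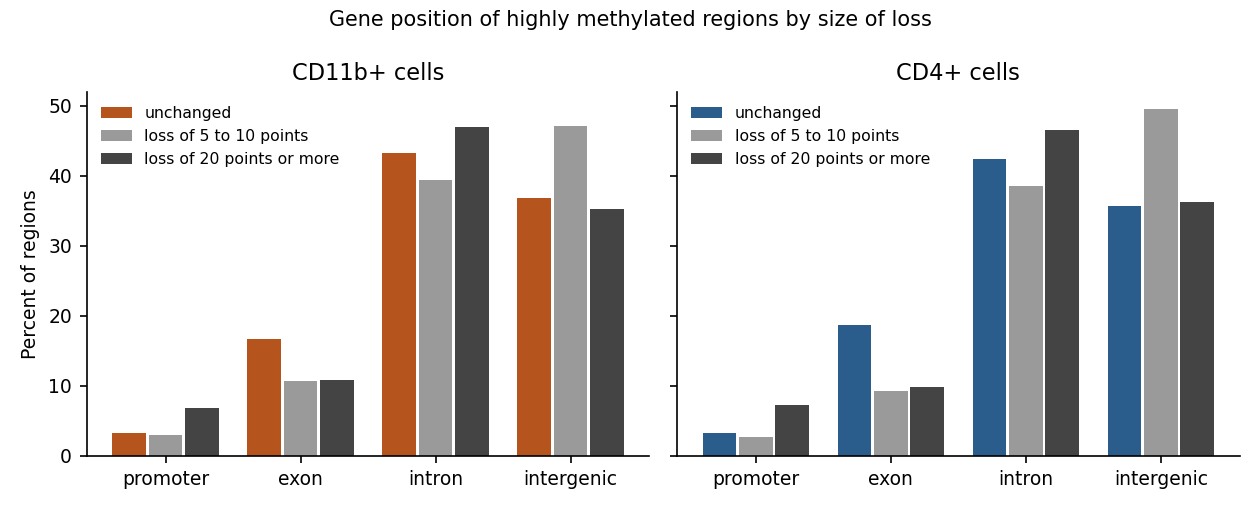
Percent of regions (vertical axis) at promoters, exons, introns and between genes, for unchanged regions (coloured), regions that lost 5 to 10 points (grey) and regions that lost at least 20 points (black), with CD11b+ cells on the left and CD4+ cells on the right. Exons hold 16.7% and 18.7% of the unchanged regions, against 10.6% and 9.29% at losses of 5 to 10 points and 10.8% and 9.86% at losses of at least 20 points.

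Coding regions were also compared with the rest within classes of density and, separately, within classes of WT level. Below 5 CpG per 100 bp, coding regions met the rule more often than regions without coding sequence in each density class of both cell types: at 1 to 2 CpG per 100 bp the shares were 4.57% against 3.35% in CD11b+ and 4.31% against 2.59% in CD4+ cells, and at 3 to 5 they were 9.39% against 7.90% and 10.4% against 7.84%. At 5 or more CpG per 100 bp the difference turned in CD11b+ cells, with 13.2% against 14.3%, and was small in CD4+ cells, with 15.2% against 14.7%. At WT means of 95% or more, 8.75% of coding regions met the rule against 7.94% of the rest in CD11b+ and 10.3% against 7.38% in CD4+ cells, and at WT means of 80% to 85% the shares were 1.48% against 1.40% and 1.41% against 0.794%. Coding position, density and WT level thus overlapped, and their separate parts were not tested.

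The central question for these regions was whether they were also unchanged in the other cell type. Of those with an overlapping region, most did not meet the rule there. Depth per region is unknown, so a difference below 1 point cannot be told apart from one of a few points. Of the 13727 unchanged regions of CD11b+ cells, 6899 (50.3%) overlapped a listed CD4+ region by at least 1 bp, and in 739 of these the CD4+ region was itself highly methylated and below 1 point, 10.7% of those that overlapped. The same share was 3.24% for the other highly methylated CD11b+ regions and 3.56% over all of them. Of the 16599 unchanged regions of CD4+ cells, 6682 (40.3%) overlapped a CD11b+ region, and 792 of these (11.9%) were unchanged there, against 3.34% for the other highly methylated regions and 3.67% over all of them. The regions shared by both lists were thus 5.38% of the CD11b+ list and 4.77% of the CD4+ list, since a region without an overlapping partner could not be compared. The shared share moved with the limit used in both cell types: at 0.5 point it was 5.48% and 5.89%, and at 2 points 20.4% and 22.5%, against 1.71% and 1.75% and against 6.20% and 6.50% of the other highly methylated regions. It was also lower at WT means of 80% to 85%, with 1.68% and 5.29%, against 0.790% and 1.01%. With a reciprocal overlap of 50% it was 13.2% and 15.1%, against 2.52% and 2.67%.

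Where the partner was highly methylated, it had usually lost methylation, only less than usual. At unchanged CD11b+ regions the median loss in CD4+ cells was 4.21 points (quartiles 1.95 and 6.42), against 6.55 points (4.32 and 9.40) at the other highly methylated regions. At unchanged CD4+ regions the median loss in CD11b+ cells was 3.98 points (1.48 and 6.15), against 6.21 points (4.08 and 9.00). A loss of at least 1 point was present in 82.5% of these partners in CD4+ and in 79.1% in CD11b+ cells, a loss of at least 5 points in 40.3% and 37.7%, and a gain of at least 1 point in 6.37% and 8.58%. A loss of at least 20 points was rare, in 22 of 6624 partners in CD4+ cells and in 19 of 6410 in CD11b+ cells, against 2.21% and 2.65% of the partners of the other regions. These values cover the unchanged regions with a highly methylated partner, and most of the remaining ones had no overlapping region to compare.

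**Figure D5:**
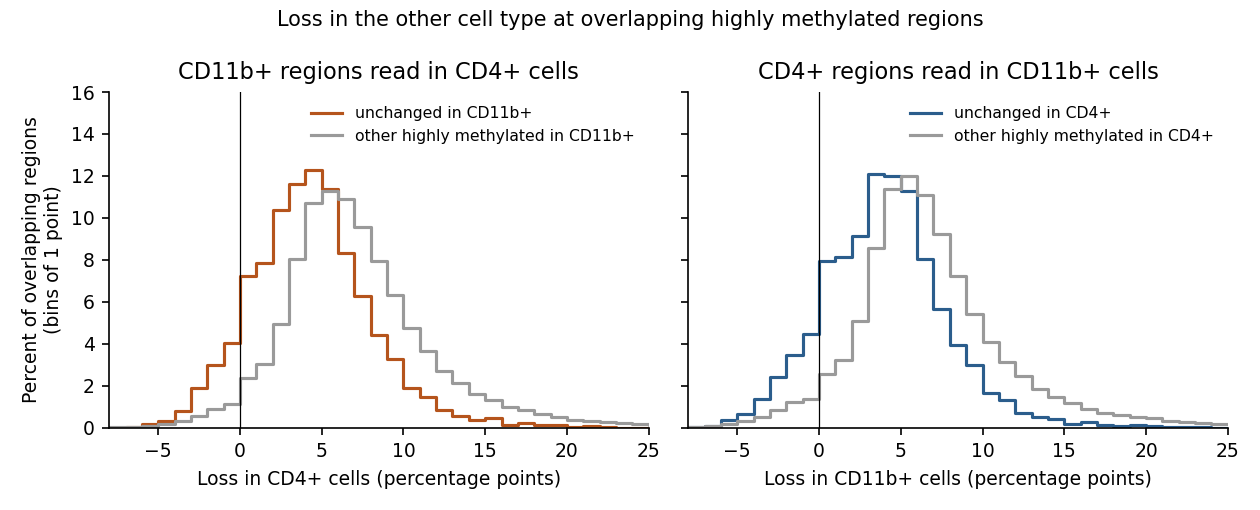
Loss of methylation in the other cell type (horizontal axis, percentage points) at overlapping highly methylated regions, as the percent of regions in bins of 1 point (vertical axis). On the left, CD11b+ regions are read in CD4+ cells and on the right CD4+ regions in CD11b+ cells, with unchanged regions in colour and other highly methylated regions in grey. The coloured curves lie left of the grey ones but centre on medians of 4.21 and 3.98 points, not on 0.

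Sharing followed the size of the change in order. The share of overlapping regions whose partner was unchanged fell from 10.7% at unchanged CD11b+ regions to 5.37% at losses of 1 to 5 points, 2.44% at 5 to 10, 0.946% at 10 to 20 and 0.161% at 20 points or more. For CD4+ regions the same shares were 11.9%, 6.12%, 2.78%, 0.973% and 0.193%. Regions that gained at least 1 point had shares of 9.59% and 11.1%, close to those of the unchanged regions. Density moved with sharing: of unchanged regions with 5 or more CpG per 100 bp, 17.4% of CD11b+ and 18.5% of CD4+ regions had an unchanged partner, against 7.53% and 9.46% below 2 CpG per 100 bp. The other highly methylated regions of the same densities had 8.39% and 7.23% at 5 or more and 2.39% and 2.70% below 2, so the shared share was above that of the others at either density. By position, exonic unchanged regions were shared in 12.3% of CD11b+ and 12.8% of CD4+ cases, intronic ones in 11.4% and 12.5%, those between genes in 9.18% and 10.3%, and those at promoters in 11.0% and 14.2%. The other highly methylated regions had 5.39% and 4.78% in exons, 3.38% and 3.55% in introns, 2.57% and 2.84% between genes and 2.95% and 2.69% at promoters.

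The 739 CD11b+ regions unchanged in both cell types had a median of 2.55 CpG per 100 bp, against 2.02 in the 6160 that overlapped a CD4+ region which was not unchanged. Exons held 18.4% of them against 15.7%, introns 46.7% against 43.6%, and the space between genes 31.5% against 37.4%. Their WT medians were 94.8% in CD11b+ and 95.4% in CD4+ cells, against 93.5% and 94.1%. The difference had the same sign in both cell types in 418 of the 739, and in 3912 of the 6160. The mean was lower in R878H in 64.4% of all unchanged CD11b+ and 65.8% of all unchanged CD4+ regions. Equal signs alone therefore show no link between the cell types. The 739 regions touched 497 protein-coding genes.

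The regions with the most measured cytosines give the least coarse means. Of the unchanged CD11b+ regions with more than 20 cytosines that overlapped a CD4+ region, 24 had an unchanged partner and 192 did not. Where both regions needed more than 20 cytosines, 21.4% of 14 in CD11b+ and 37.5% of 8 in CD4+ cells had one. The other highly methylated regions had 0.550% and 0.846% under that limit, and the unchanged ones were very few. In CD11b+ cells the largest was a region of 1300 bp in an intron of Gabbr2, a GABA receptor subunit gene (chr4:46834454-46835753), with 50 cytosines and means of 93.925% in WT and 93.615% in R878H. The CD4+ region overlapping its end measured 97.7% and 96.375%. A region of 1895 bp over an exon of Pik3r4, a regulatory subunit of a lipid kinase (chr9:105669804-105671698), had 46 cytosines and means of 94.864% and 94.745%, while its CD4+ partner fell from 92.625% to 87.25%. A region of 1578 bp over an exon of Elf2, an ETS family transcription factor gene (chr3:51256566-51258143), had 43 cytosines and means of 91.378% and 91.221%, and its CD4+ partner fell from 90.969% to 81.797%. The remaining ones lay between genes, with Sox9 as the nearest start site, and in an intron of Stox2, with means of 85.044% and 85.422% and of 82.957% and 82.299%. All 5 of these CD11b+ regions had a CD4+ partner and none of the 5 partners was unchanged, with losses of 1.325, 2.850, 5.375, 8.083 and 9.172 points. In the same order the partners overlapped only 274, 146, 555, 584 and 698 bp, so a part was set against the whole region. Over all overlapping unchanged CD11b+ regions 10.7% had an unchanged partner, so none of 5 does not stand out.

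In CD4+ cells the largest was a region of 1599 bp at the promoter and coding exon of Bdkrb1, the bradykinin B1 receptor gene (chr12:105603314-105604912), with 57 cytosines and means of 92.496% in WT and 92.325% in R878H. The CD11b+ region inside it measured 95.8% and 92.025%. A region of 939 bp in an intron of Tenm3, a teneurin gene (chr8:48450267-48451205), had 45 cytosines and means of 92.761% and 92.456%, and its CD11b+ partner fell from 93.442% to 88.308%. A region in an intron of Wwox, an oxidoreductase gene (chr8:114833238-114834530), had 44 cytosines and means of 95.739% and 95.841%, and overlapped no CD11b+ region. The others lay between genes, with Zfp516 and Pced1b as the nearest start sites, with means of 85.944% and 85.643% and of 85.781% and 85.375%, and with losses of 9.150 and 3.950 points in their CD11b+ partners. None of the 4 partners was below 1 point. They overlapped only 124 to 501 bp of these regions, and over all overlapping unchanged CD4+ regions 11.9% had an unchanged partner.

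Among the pairs unchanged in both cell types, the one with the most cytosines touched an exon of Ttc13 (chr8:124682668-124683701), with 33 cytosines in CD11b+ and 21 in CD4+ cells. Its means were 86.386% in WT and 86.5% in R878H CD11b+ cells, and in CD4+ cells they were 82.774% and 82.56%. The next pairs lay in introns of Srrm3, a splicing factor gene, and of Fndc3b, with losses of 0.162 and 0.228 points and of 0.150 and 0.581 points in CD11b+ and CD4+ cells. The pair at Pla2g2c and Ubxn10 differed by 0.916 and 0.110 points. An exon of Arsb, a lysosomal sulfatase gene, had the higher mean in R878H in both cell types, with losses of -0.825 and -0.546 points, and a region 14797 bp from the start of Fzd6, a Wnt receptor gene, had losses of -0.250 and 0.833 points.

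Unchanged regions lay close to regions that did lose methylation. The median gap to the nearest listed region was 269 bp in CD11b+ cells, against 886 bp for the other highly methylated regions, and 219 bp against 663 bp in CD4+ cells, while at regions that lost at least 20 points it was 394 bp and 319 bp. Another listed region lay within 1 kb of 73.9% of them in CD11b+ cells (52.8% of the others) and of 78.9% in CD4+ cells (59.8%), and within 1 kb of 70.4% and 77.0% of the regions that lost at least 20 points. The nearest listed region within 10 kb had a median loss of 6.57 points in either cell type, against 6.25 and 6.57 points beside the other highly methylated regions, and it had lost at least 5 points beside 68.4% and 68.1% of the unchanged regions, against 62.5% and 65.8% beside the others. It was itself below 1 point beside 1.68% and 1.86% of the unchanged regions, against 4.99% and 4.32% beside the others. The unchanged regions were thus single short stretches within neighbourhoods of ordinary loss, and such stretches seldom lay side by side. The region caller sets edges from the same difference between the groups, so adjoining regions tend to differ by construction.

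Every autosome held unchanged regions. Between 4.23% of highly methylated regions on chromosome 14 and 5.03% on chromosome 5 met the rule in CD11b+ cells, and between 3.45% on chromosome 1 and 4.43% on chromosome 5 in CD4+ cells. Of 2405 bins of 1 Mb that held a highly methylated region, 83.2% in CD11b+ and 87.8% in CD4+ cells held an unchanged one, with a median of 4 and 5 and at most 32 and 34 in a bin. Their number per Mb ran from 4.38 on chromosome 14 to 7.41 on chromosome 19 in CD11b+ cells and from 5.18 on chromosome 14 to 8.25 on chromosome 17 in CD4+ cells. In bins with at least 50 highly methylated regions, the share that met the rule had a 5th and 95th percentile of 0.884% and 7.69% in CD11b+ cells, with a maximum of 12.3%, and of 0% and 6.65% in CD4+ cells, with a maximum of 10.2%.

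At the level of genes, 31.2% of the protein-coding genes with a highly methylated autosomal region had an unchanged one in CD11b+ cells (4869 of 15624) and 34.1% in CD4+ cells (5697 of 16697). The genes with an unchanged region had a median of 13 and 15 highly methylated regions, against 3 and 4 in the rest, so long genes led the list. Of all highly methylated regions in genes, 5.32% in CD11b+ and 4.69% in CD4+ cells were unchanged. Gm20388, a gene model of 4435 kb that runs over many other genes, had 146 unchanged regions of 2722 in both tables together. Fgfr2, a fibroblast growth factor receptor gene, followed with 65 of 1237 and Wwox with 57 of 805. The Fgfr2 count was taken over a gene model of 2961 kb, which may also take in sequence of other genes. Zfhx3, a homeobox transcription factor gene, had 47 of 756, Sox5, a transcription factor gene of the SOX family, 40 of 745 and Camta1, a calmodulin-binding transcription activator gene, 39 of 523. Tenm3 had 32 of 490, Atrnl1 31 of 368, Cdh13, a cadherin gene, 30 of 464 and Grip1, a synaptic scaffold gene, 28 of 504. Their shares of 5.25% to 8.42% lay near or somewhat above that of all genes.

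Genes of the methylation machinery were examined as a group. An unchanged region was present in 6 of 20 such genes in CD11b+ cells (30.0%, against 31.2% of all genes) and in 12 of 18 in CD4+ cells (66.7%, against 34.1%). Of their highly methylated regions, 12 of 211 (5.69%) and 18 of 276 (6.52%) were unchanged, against 5.32% and 4.69% over all genes. The gene counts were not matched for the number of highly methylated regions per gene. Dnmt3a itself had 2 unchanged regions of 32 in CD11b+ cells and none of 34 in CD4+ cells. Both lay in introns, with means of 93.925% and 92.95% and of 97.625% and 96.875%. The second was only 16 bp long and wholly soft-masked, and neither overlapped a CD4+ region. Dnmt1, the maintenance enzyme, had 4 of 25 and 3 of 22 and is named here after its values were seen. All 3 of its CD4+ regions touched coding exons, with WT and R878H means of 97.25% and 97.075%, of 96.15% and 95.475% and of 93.875% and 93.75%. Its CD11b+ regions lay in introns (96.6% and 97.525%, 95.425% and 94.45%), at a coding exon (93.75% and 92.825%) and at the promoter (93.525% and 94.5%). No region of Dnmt1 was unchanged in both cell types. Tet3, an enzyme that oxidises methylated cytosine, and Zbtb38, a zinc finger protein that binds methylated DNA, each held a region unchanged in both cell types. Over all protein-coding genes, 497 of the 15624 with a highly methylated CD11b+ region did. In the Tet3 intron the means were 94.325% and 95.05% in CD11b+ and 96.725% and 95.875% in CD4+ cells, and in the Zbtb38 intron 96.6% and 96.15% and 97.283% and 97.45%.

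Germline genes, many of which are known to be silenced by methylation in blood cells, had an unchanged region in 9 of 17 genes in CD11b+ cells (52.9%, against 31.2% of all genes) and in 5 of 18 in CD4+ cells (27.8%, against 34.1%), and 8.62% and 3.82% of their highly methylated regions were unchanged, against 5.32% and 4.69% over all genes, so the 2 cell types lay on opposite sides of the background. Only Tdrd9, a helicase gene of the piRNA pathway, held one unchanged in both, at a coding exon with means of 95.35% and 95.85% in CD11b+ and 95.2% and 94.55% in CD4+ cells. Myeloid genes had an unchanged region in 1 of 11 genes in CD11b+ (9.09%) and 3 of 13 in CD4+ cells (23.1%), and T cell genes in 3 of 18 (16.7%) and 2 of 17 (11.8%), all below the 31.2% and 34.1% of all genes. Stem cell genes had one in 5 of 16 (31.2%) and 7 of 16 (43.8%). None of the genes of these 3 lists held a region unchanged in both cell types. Over all protein-coding genes, 497 of the 15624 with a highly methylated CD11b+ region did. Lists this short could thus hold none without standing out. The shares of highly methylated regions that were unchanged in the 3 lists, 4.26% and 4.44%, 5.84% and 5.41% and 4.11% and 3.89%, lay around those of all genes.

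Gene families differed more widely. Clustered protocadherins, cell-surface adhesion genes arranged in tandem, had an unchanged region in 25 of 45 genes in CD11b+ (55.6%, against 31.2% of all genes) and in 17 of 46 in CD4+ cells (37.0%, against 34.1%). Of their highly methylated regions 7.84% and 4.36% were unchanged, against 5.32% and 4.69% over all genes, and because their gene models overlap one region counts for several of them. Zinc finger genes had one in 67 of 303 (22.1%) and 80 of 333 (24.0%), with 6.37% and 5.00% of their regions. Olfactory receptors, short genes in CpG-poor clusters, had one in 5 of 234 (2.14%) and 14 of 356 (3.93%), with 1.37% and 2.70% of their regions. Vomeronasal receptors had one in 1 of 59 and 0 of 97 genes, and ribosomal protein genes in 2 of 37 and 4 of 48. The counts of the last 3 families lay below the background of all genes, in genes that held few highly methylated regions each.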

How the data were processed

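Per the study's methods, the authors aligned reads to mm10 in the BISCUIT workflow, and metilene then cut the genome into regions from the CpG methylation ratios. The methods name limits on CpG number, mean difference and FDR for calling differential regions, which the listed rows do not all meet; versions, coverage minimum and segmentation settings are not given in the sources used here. The deposited values are mean methylation percent of each genotype per region; the authors' difference, p-value and q-value columns were not used. The columns carry no group names: the column that was higher in 93.4% and 95.5% of rows was read as WT. The means were whole multiples expected for 4 samples in each group. There were 0 columns of per-sample values, so no replicate error could be computed, and no test was run.

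Members and lists were chosen with earlier results of these data known. Positions are 1-based mm10. Sequence features came from RefSeq GRCm38.p6 (pysam 0.24.0), gene classes from GENCODE M21 (bedtools 2.31.1), and a partner was the region with the largest overlap. Steps were tested on simulated regions. No sequence from chromosome 18 is printed. Named regions were the 5 with the most cytosines per table, the 6 shared pairs with the most cytosines and the 5 on either side of the limit; named genes were the 10 with the most members, list genes with a shared pair, and Dnmt3a. Alternatives varied the limit, WT level, cytosine number, promoter width, gene set, overlap and density measure.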

Additional observations from a re-analysis of the deposited data

How the results depend on the processing

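No paired analysis was possible because the tables hold group means only, and no replicate could be left out for the same reason. Depth per region is unknown, so a difference below 1 point cannot be told apart from one of a few points. The values below are for CD11b+ and then CD4+ cells. The number of unchanged regions was 6633 and 7946 with a limit of 0.5 point, 29831 and 36135 with 2 points, 3413 and 4404 with more than 10 cytosines, and 298 and 401 with more than 20. The share above the median CpG density of the other highly methylated regions was 70.1% and 75.9% with 2 points, 70.2% and 75.5% with the level taken from R878H, 78.2% and 84.5% with more than 20 cytosines and 70.1% and 74.8% with the tables' own cytosine numbers. It was 72.8% in CD11b+ cells with more than 10 cytosines and 75.6% in CD4+ cells with WT means of at least 90%. Within WT means of 80 to 85, 85 to 90, 90 to 95 and 95 to 100% it was 57.1%, 65.4%, 68.6% and 72.4% in CD11b+ and 66.9%, 71.5%, 74.1% and 74.4% in CD4+ cells, always above 50%. The exon share was 16.1% and 17.8% with 2 points, 18.2% and 20% with WT means of at least 90%, 24.5% and 30.2% with more than 20 cytosines, 15.8% and 17.6% with promoters of 2 kb, and 17.7% in CD4+ cells with all annotated genes. Within the 4 WT classes it was 7.95%, 9.37%, 16.0% and 21.5%, and 10.6%, 8.70%, 16.1% and 23.6%, above the other highly methylated regions each time, by as little as 0.310 point. The share also unchanged in the other cell type was 5.48% and 5.89% with 0.5 point and 20.4% and 22.5% with 2 points. It was 11.7% in CD11b+ cells with WT means of at least 90%. With reciprocal overlap of 50% it was 13.2% and 15.1%, against 2.52% and 2.67% of the other highly methylated regions. With more than 20 cytosines it was 21.4% of 14 and 37.5% of 8 regions, against 0.550% and 0.846%. Within the WT classes it was 1.68%, 4.58%, 9.46% and 17.1%, and 5.29%, 6.75%, 9.21% and 16.0%, above the other regions each time, by 0.888 point at the least. With all annotated genes the promoter share was 11.1% and 11.8%, against 9.41% and 9.04% of the other highly methylated regions. The sign against the other highly methylated regions turned for promoters with 2 points (2.95%, CD11b+), more than 20 cytosines (4.36% and 3.99%), WT means of 80 to 85% (3.14% and 2.76%) and 85 to 90% (2.76%, CD4+). It turned for introns with WT means of 80 to 85% (34.2%) and 85 to 90% (37.2%) in CD11b+ and with more than 20 cytosines (36.7%) and WT means of 95 to 100% (45.7%) in CD4+ cells, and between genes with WT means of 80 to 85% in CD11b+ cells (54.7%). The cause of these changes was not tested.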

Other observations

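On the X chromosome, which the rule leaves out, 73 of 2350 highly methylated regions of CD11b+ cells (3.11%) and 71 of 3306 of CD4+ cells (2.15%) differed by less than 1 point. The median loss of highly methylated X-linked regions was 4.88 points in CD11b+ and 5.68 points in CD4+ cells, against 5.65 and 6.11 points on the autosomes.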
